A study of Mus musculus with 2 samples.

Results

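Chemokines are small secreted proteins that steer the migration of leukocytes along gradients, and they signal through G protein-coupled receptors on the responding cells. Inflammatory chemokines are induced by cytokines and microbial products and draw monocytes, neutrophils or T cells into tissue, whereas homeostatic ones guide the routine traffic of lymphocytes and progenitors. Atypical chemokine receptors bind chemokines without classical G protein signalling and scavenge or transport them. In the liver, sinusoidal endothelial cells, Kupffer cells, stellate cells and hepatocytes can all release chemokines, and those held on the sinusoidal surface take part in leukocyte arrest.

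The members were all non-control array probes whose gene name in the file of the wild-type array is that of a chemokine (Ccl, Cxcl, Cx3cl or Xcl followed by a number, Pf4 or Ppbp) or of a chemokine receptor (Ccr, Cxcr, Cx3cr, Xcr, Ccrl or Ackr followed by a number, or Darc). The rule took 75 of 39429 probes, which stand for 62 of 31865 genes, and divided them into 39 ligand genes with 47 probes and 23 receptor genes with 28 probes. Darc is given here as Ackr1, Cxcr7 as Ackr3 and Ccrl1 as Ackr4. The ob/ob sample was RNA of liver sinusoidal endothelial cells (LSEC) from a male mouse homozygous for the obese mutation of the leptin gene, and the wild-type sample was RNA of the same cell type from a male wild-type mouse. Both mice were 8 weeks old, both livers were digested with collagenase, and both cell preparations spent a night in medium with serum before extraction. The labels give no strain and no purity of the preparations. Each group holds 1 mouse and 1 array, so the differences below have no replicate check and no p-value is given.

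Signals are processed spot intensities. A difference is the log2 value in ob/ob cells less that in wild-type cells, each signal first divided by its array's 75th percentile, 1430 on the ob/ob array and 989 on the wild-type array, so a ratio of 2 printed signals exceeds the scaled fold by 0.53 on the log2 scale. A gene was measured on an array where its probe was well above background, and a difference of at least 2-fold (1 on the log2 scale) was counted. The error attached to a difference is the scanner's error-model SD, which covers the spot and not the mouse. Its median over genes was 0.20, whereas differences between probes of the same gene had a larger SD of 0.33 (3690 genes). Across the 18128 genes measured on both arrays the median difference was -0.12. All 16 LSEC markers listed, among them Stab2, Lyve1 and Clec4g, were measured on both arrays and all lay within 2-fold. No member spot lay in the bright patches of the wild-type array, where the local background reached 3324. At member spots it did not exceed 68.0 on the ob/ob array and 71.0 on the wild-type array.

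Of genes measured on both arrays, 19 of 26 ligands and 9 of 10 receptors had a difference above 0, beside 6760 of all 18128 genes. In a whole preparation, fewer cells of a type and less RNA per cell cannot be told apart. Both arrays measured 36 of the 62 genes, and 15 were measured on neither. The ob/ob array alone measured 11 and the wild-type array alone 0, beside 6.84% of all genes for the ob/ob and 0.857% for the wild-type array. Among the 26 ligands measured on both arrays, 13 (50%) passed 2-fold upward and 2 downward, and 11 stayed within it. Among the 10 receptors, 7 (70%) passed it upward and 0 downward. Upward passed 5.83% and downward 2.31% of the 18128 genes. At 4-fold, 8 ligands and 5 receptors were higher and 1 ligand was lower, beside 1.82% of all genes higher. At 8-fold, 4 ligands and 2 receptors were higher, beside 0.524% of all genes. The genes that the ob/ob array alone measured were 6 of 39 ligands (15.4%) and 5 of 23 receptors (21.7%).

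**Figure D1:**
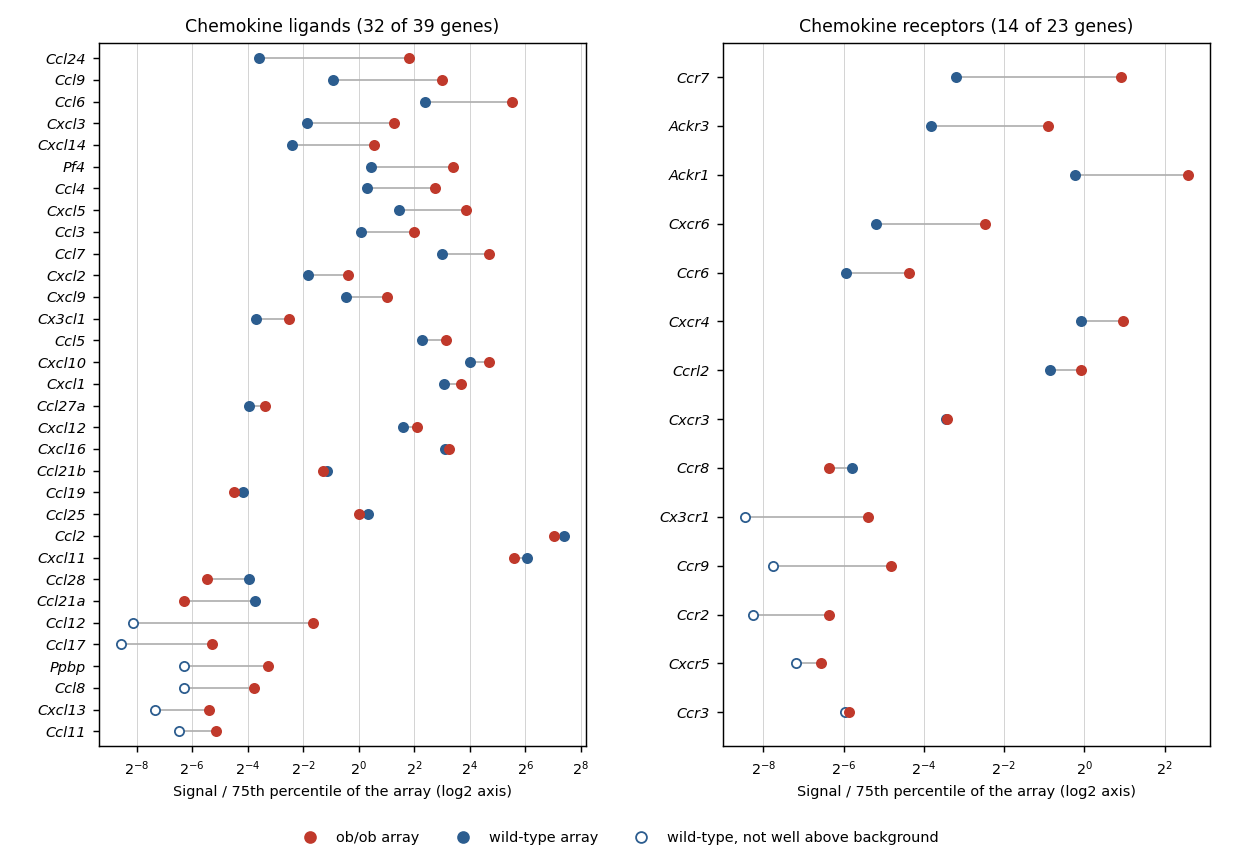
Scaled signal (signal divided by the 75th percentile of its array, log2 axis) of 32 ligand and 14 receptor genes measured on at least 1 array. Red points stand for the ob/ob array and blue points for the wild-type array, open where the gene was not well above background. Ccl24 and Ccr7 show the widest gaps among the plotted genes measured on both, and Ccl21a and Ccl28 are the 2 genes that lie more than 2-fold to the left in ob/ob.

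Most ligands of the macrophage inflammatory protein cluster were higher in ob/ob cells. The probes of that cluster lie between 83339296 and 83478111 of chromosome 11 (mm9) and belong to Ccl5, Ccl9, Ccl6, Ccl3 and Ccl4. All 5 were measured on both arrays and 4 were at least 2-fold higher. Ccl9, a ligand of Ccr1, had a signal of 11500 in ob/ob and 520 in wild-type cells, a difference of 3.93 ± 0.20, or 15.3-fold. Ccl6, its neighbour and also a Ccr1 ligand, had 66400 in ob/ob and 5135 in wild-type cells, a difference of 3.16 ± 0.20. Both rodent genes were therefore well above background in the wild-type sample and far brighter in the ob/ob sample. Ccl4 had 9510 in ob/ob and 1223 in wild-type cells (2.43), and Ccl3 had 5690 in ob/ob and 1047 in wild-type cells (1.91). Ccl4 and Ccl3 attract macrophages and T cells. Ccl5, which also draws T cells, had 12800 in ob/ob and 4826 in wild-type cells and stayed within 2-fold at 0.87, though quantile normalization took it to 1.04.

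The second chromosome 11 cluster, from 81850650 to 81990227 (mm9), holds the monocyte chemoattractants and eotaxin-1, and its members did not differ alike. Ccl2, the main ligand of Ccr2 and the signal that calls monocytes from the blood, was spotted 10 times on each array. Before scaling, its spots ranged from 161000 to 218000 in ob/ob and from 157579 to 181320 in wild-type cells, and these unscaled ranges overlapped. After division by the 75th percentile of each array, every ob/ob spot lay below every wild-type spot. The scaled difference was -0.37, with an SD of 0.11 over the 10 spot pairs, and quantile normalization turned it to 0.19. Ccl7, which shares Ccr2 and also binds Ccr1 and Ccr3, had 36700 in ob/ob and 7856 in wild-type cells, a difference of 1.69 ± 0.20. Ccl2 was thus within 2-fold, and Ccl7 beside it was 3.23-fold higher.

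The other members of that cluster were below or near background in wild-type cells. For a gene measured on 1 array, the fold is a bound against the dimmest measured signal of the other array (12.3 for wild-type). Where the probe's own signal there was higher, as for Ccl8, Ppbp and Ccr3, the plain ratio of scaled signals is given instead. A wild-type signal of 15.8, that of Ccr3, was still not well above background. The value of 12.3 is therefore no strict detection limit, and every "at least" fold here is nominal. Ccl12, a rodent ligand of Ccr2, had a signal of 457 in ob/ob cells and 3.53 in wild-type cells, which was not well above background, so it was at least 25.6-fold brighter. Ccl8, which in the mouse acts through Ccr8, had 106 in ob/ob and 12.8 in wild-type cells, where it was not well above background. Its scaled ratio was 5.75, with an error-model SD of 0.40 on the log2 scale. Ccl11, eotaxin-1, had 40.2 in ob/ob and 11.3 in wild-type cells and was at least 2.25-fold brighter. Ccl1 was above background on neither array.

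Ccl24, eotaxin-2, which acts on Ccr3 of eosinophils and is made by alternatively activated macrophages, had the largest difference of any member measured on both arrays. Its probe lies on chromosome 5 from 136046667 to 136046726 (mm9), and no annotation of that build was used here to place probes in exons or UTRs. Its signal was 5070 in ob/ob and 82.9 in wild-type cells, a difference of 5.40 ± 0.21, or 42.3-fold, and 3.96 with normexp background correction and the 75th percentile. Its neighbour on chromosome 5, Ccl26, was above background on neither array. Ccl17, a ligand of the T cell receptor Ccr4 that dendritic cells make, had 36.3 in ob/ob and 2.62 in wild-type cells and was at least 2.03-fold brighter, while Ccl22, which binds the same receptor, was above background on neither array.

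The CXC chemokines that attract neutrophils lie in a cluster on chromosome 5, with probes between 91190490 and 91334593 (mm9), and were higher to different degrees. Cxcl5 had 20800 in ob/ob and 2725 in wild-type cells, a difference of 2.40. Cxcl3 had 3430 in ob/ob and 273 in wild-type cells (3.12), and Cxcl2 had 1100 in ob/ob and 278 in wild-type cells (1.45). Cxcl1 had 18500 in ob/ob and 8392 in wild-type cells and stayed within 2-fold at 0.61. All 4 are ligands of Cxcr2, and their error-model SD was 0.20 or 0.21. Cxcl2 came to 0.98, just under the threshold, with normexp background and the 75th percentile. Cxcl15 was above background on neither array.

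Cxcl1, Cxcl2 and Cxcl3 share the same letters before their start sites, and their promoters are shown for that reason. The sequences come from RefSeq (GRCm38.p6), cover the 250 bases before the start, and carry in capitals every match to the consensus of NF-kB, the factor family that inflammatory cytokines activate.
Cxcl1, chr5:90890995-90891244, plus strand: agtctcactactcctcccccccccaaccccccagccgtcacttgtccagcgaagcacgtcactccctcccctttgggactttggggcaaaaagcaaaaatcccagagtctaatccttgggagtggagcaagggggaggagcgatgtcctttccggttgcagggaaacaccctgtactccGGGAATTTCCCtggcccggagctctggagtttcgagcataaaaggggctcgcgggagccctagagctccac
Cxcl2, chr5:90903649-90903898, plus strand: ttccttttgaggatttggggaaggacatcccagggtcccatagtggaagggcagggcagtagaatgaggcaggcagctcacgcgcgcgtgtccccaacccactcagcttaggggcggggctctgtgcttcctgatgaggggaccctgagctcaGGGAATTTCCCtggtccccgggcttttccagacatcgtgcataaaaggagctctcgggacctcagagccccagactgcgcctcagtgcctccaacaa
Cxcl3, chr5:90785851-90786100, plus strand: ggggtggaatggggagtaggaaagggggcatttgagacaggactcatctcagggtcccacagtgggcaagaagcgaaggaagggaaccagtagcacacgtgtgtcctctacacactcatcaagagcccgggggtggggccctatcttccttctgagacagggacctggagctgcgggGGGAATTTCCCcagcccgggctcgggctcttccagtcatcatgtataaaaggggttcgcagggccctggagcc
In each, overlapping matches on both strands make up the capitals, which begin 71 bases before the start in Cxcl1, 97 in Cxcl2 and 73 in Cxcl3. In windows of 100 bases placed on the shared letters, Cxcl1 had 44 bases identical with Cxcl2 and 44 with Cxcl3, and Cxcl2 had 35 identical with Cxcl3. The differences of these genes were 0.61 for Cxcl1, 1.45 for Cxcl2 and 3.12 for Cxcl3, so genes with the same letters differed by unequal amounts.

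Pf4 and Ppbp, the platelet chemokines that sit between Cxcl5 and Cxcl3 in the same cluster, were both higher in the ob/ob sample. Pf4, which megakaryocytes store for platelets and macrophages can express, had a signal of 15100 in ob/ob and 1348 in wild-type cells, a difference of 2.95 ± 0.20, or 7.74-fold. Ppbp, the precursor of a Cxcr2 ligand, had 148 in ob/ob and 12.7 in wild-type cells, where it was not well above background. Its scaled ratio was 8.06, with an error-model SD of 0.48 on the log2 scale. Of the 11 platelet and megakaryocyte markers listed, 4 were measured on both arrays and all 4 lay within 2-fold, 2 passed background in ob/ob alone and 5 on neither array, among them Gp1ba, Gp6 and Gp9. The summed scaled signal of that list was 17.0 in ob/ob and 8.92 in wild-type cells, with the integrin Itgb3, which endothelial cells express too, the brightest at signals of 24100 in ob/ob and 8700 in wild-type cells. The part of platelets in the Pf4 and Ppbp signals was not tested.

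The ligands of Cxcr3, the receptor of activated T cells and natural killer cells, are induced by interferons and were higher in part. Cxcl9 had 2880 in ob/ob and 730 in wild-type cells, a difference of 1.45 ± 0.20, and its other probe gave 1.70. Cxcl10 had 37500 in ob/ob and 16080 in wild-type cells, or 0.69. Cxcl11 had 69400 in ob/ob and 66060 in wild-type cells, or -0.46, and its dimmer probe gave -0.04. Thus 1 of these 3 neighbours on chromosome 5 passed 2-fold.

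The promoter of Cxcl10 held matches to all 3 motifs searched and is shown for that reason, again with the matches in capitals.
Cxcl10, chr5:92348890-92349139, minus strand: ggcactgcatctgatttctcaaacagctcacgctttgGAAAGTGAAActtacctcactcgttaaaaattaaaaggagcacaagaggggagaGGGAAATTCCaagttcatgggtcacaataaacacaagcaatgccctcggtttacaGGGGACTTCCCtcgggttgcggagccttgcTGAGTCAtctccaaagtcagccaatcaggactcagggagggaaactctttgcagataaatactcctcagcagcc
The capitals are, in order, the interferon-stimulated response element (GAAA, any 2 letters, GAAA), NF-kB matches and an AP-1 site (TGANTCA). Both strands were searched in the 250 bases before the start, and no match of 1 motif overlapped that of another in a member. Promoter sequences were at hand for 47 of the 62 members. The NF-kB consensus was found in 11 of the 47 (23.4%), against 8.23% of all 27025 genes with a promoter, the interferon element in 3 of 47 against 3.46%, and the AP-1 site in 6 of 47 against 7.82%. Among ligands, 3 of the 14 that were at least 2-fold higher or measured on the ob/ob array only held an NF-kB match, as did 4 of the other 14. A match describes letters only.

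Cxcl12, Cxcl16 and Ccl25, which guide routine leukocyte traffic, stayed within 2-fold. Cxcl12, which retains progenitors and lymphocytes through Cxcr4, had 6200 in ob/ob and 3000 in wild-type cells, a difference of 0.51, with 0.64 by its other probe. Cxcl16, a membrane-bound ligand of Cxcr6 that sinusoidal endothelium is known to display to natural killer T cells, had 13700 in ob/ob and 8446 in wild-type cells, or 0.17, and -0.11 with scaling on the array median. Ccl25, a ligand of Ccr9, had 1440 in ob/ob and 1249 in wild-type cells, or -0.33. These 3 genes stood within 2-fold under each of the 8 processing alternatives.

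Cxcl14 and Cx3cl1 were higher. Cxcl14, a chemokine of epithelia and fibroblasts, had 2110 in ob/ob and 186 in wild-type cells, a difference of 2.98 ± 0.21. Cx3cl1, fractalkine, a membrane-anchored ligand of activated endothelium, had 252 in ob/ob and 76.1 in wild-type cells, a difference of 1.20 ± 0.21. It was past 2-fold in 4 of the 8 alternatives, which could hardly change a gene with 1 probe and no flagged spot. In the others it was within 2-fold, at -0.13 with normexp background and the 75th percentile and 0.52 with normexp and quantile normalization. Scaling on the array median gave 0.92, and quantile normalization of the processed signal 0.99. Cxcl13, which guides B cells, had 34.1 in ob/ob and 6.06 in wild-type cells and was at least 1.91-fold brighter.

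Ccl21a and Ccl28 were the lower ligands, both dim. Ccl21a, a Ccr7 ligand of lymphatic vessels and lymphoid stroma, had 18.1 in ob/ob and 74.1 in wild-type cells, a difference of -2.57 ± 0.28. The probe of Ccl21b, a near-identical copy in the mouse genome, had 587 in ob/ob and 448 in wild-type cells and a difference of -0.14, so the probes did not differ alike, and which copy each reports is uncertain. Ccl19, the other Ccr7 ligand, gave -0.32 and -0.24 by the 2 probes measured on both arrays, and the first came to -1.29 with normexp background and the 75th percentile. Its remaining probe went the other way, with 23.2 in ob/ob and 4.26 in wild-type cells, where it was not well above background. Ccl28, a mucosal chemokine, had 32.5 in ob/ob and 64.5 in wild-type cells, a difference of -1.52 ± 0.25. With normexp background and quantile normalization Ccl21a came to -0.89 and Ccl28 to -0.54, both within 2-fold.

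Several receptors of migrating leukocytes were higher. Ccr7, through which mature dendritic cells and naive T cells reach lymph nodes (probe on chromosome 11, 99005551 to 99005610, mm9), had 2690 in ob/ob and 107 in wild-type cells, a difference of 4.11 ± 0.21, and 2.91 with normexp background and the 75th percentile. Cxcr6, the Cxcl16 receptor, had 257 in ob/ob and 27.1 in wild-type cells, a difference of 2.71 ± 0.28 that shrank to 0.05 under that alternative. Its second probe had 119 in ob/ob and 15.1 in wild-type cells, where it was not well above background. Ccr6, whose ligand Ccl20 was above background on neither array, had 69.5 in ob/ob and 16.1 in wild-type cells, a difference of 1.58 ± 0.33, and -1.03 under that alternative, so its direction depended on the background correction.

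The atypical receptors Ackr1 and Ackr3 were both higher. Ackr1, which carries chemokines across venular endothelium and is also found on red cells (probe on chromosome 1, 175262282 to 175262341), had 8600 in ob/ob and 849 in wild-type cells, a difference of 2.81 ± 0.20, with a range of 2.53 to 2.87 over the alternatives. Ackr3, a scavenger of Cxcl12 and Cxcl11, had 768 in ob/ob and 70.4 in wild-type cells, a difference of 2.91 ± 0.22, and 1.08 at the lowest. Ackr4, a scavenger of Ccr7 and Ccr9 ligands, was above background on neither array. Ackr2 and Gpr182, atypical receptors that the arrays name differently and the rule does not take, stood within 2-fold at 0.12 and 0.75.

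Cxcr4, the signalling receptor of Cxcl12, lay at the threshold. Its signal was 2780 in ob/ob and 928 in wild-type cells, a difference of 1.05 ± 0.20, and 0.77 with scaling on the array median. Ccrl2, which binds the chemoattractant chemerin without signalling, had 1360 in ob/ob and 548 in wild-type cells (0.78), and Cxcr3 had 134 in ob/ob and 91.1 in wild-type cells (0.02). Ccr8 had 17.4 in ob/ob and 17.8 in wild-type cells, or -0.57, close to the dimmest signals measured, and -1.69 with normexp background and the 75th percentile.

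Several receptors of blood leukocytes were at or near background on both arrays. Ccr2, the receptor of inflammatory monocytes, had 17.5 in ob/ob and 3.21 in wild-type cells, and Cxcr5, of follicular lymphocytes, had 15.1 in ob/ob and 6.84 in wild-type cells. Both were well above background in ob/ob only, with no bound above 1-fold. Ccr9 was at least 2.84-fold brighter in ob/ob (50.6 in ob/ob, 4.53 in wild-type) and Cx3cr1 at least 1.89-fold (33.8 in ob/ob, 2.81 in wild-type). Ccr3, well above background in ob/ob only, had 24.5 in ob/ob and 15.8 in wild-type cells, a plain difference of 0.10 ± 0.40. The neutrophil receptors Cxcr1 and Cxcr2, and Ccr1, Ccr1l1, Ccr4, Ccr10 and Xcr1, were above background on neither array.

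**Figure D2:**
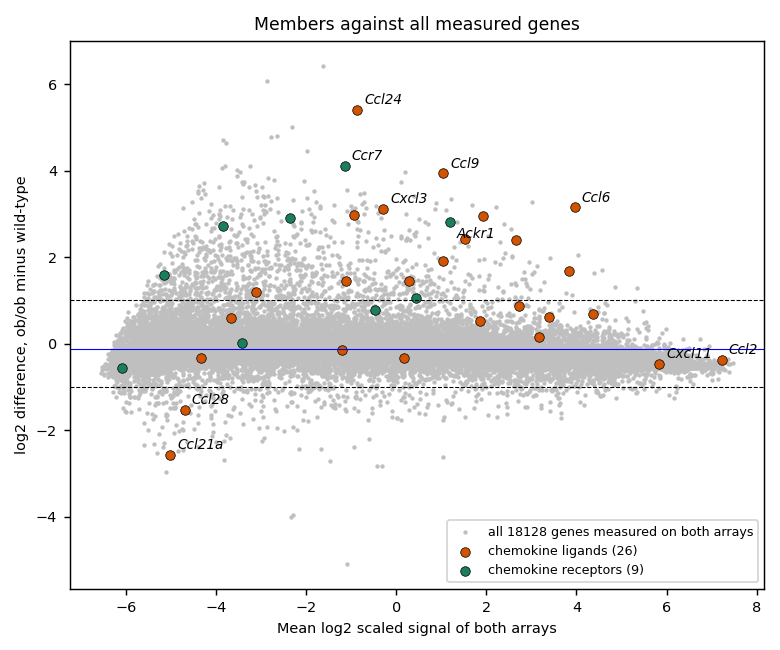
Difference (log2, ob/ob less wild-type) against the mean log2 scaled signal for the 18128 genes measured on both arrays (grey), with the 26 ligands in orange and 9 receptors in green. Dashed lines mark 2-fold and the solid line the median of -0.12. Ccl24 lies highest among the plotted members, and Ccl28 and Ccl21a lie below the lower line.

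Compared as groups, receptors had the higher median. The median difference was 2.15 over the 10 receptors (95% interval from order statistics 0.02 to 4.11) and 1.04 over the 26 ligands (0.17 to 2.40), beside -0.12 over all genes. These intervals overlap, but they refer to the median over genes of 1 mouse per group and not to mice. They therefore do not test receptors against ligands. Ligand differences ran from -2.57 to 5.40. The order of the medians depended on how dim signals were treated. With normexp background and the 75th percentile the medians were 0.78 for receptors and 0.92 for ligands, and with normexp and quantile normalization they were 0.99 for receptors and 1.0 for ligands. A smaller share of receptor genes was measured on both arrays, 10 of 23 against 26 of 39 ligand genes, and 8 receptors and 7 ligands were measured on neither.

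**Figure D3:**
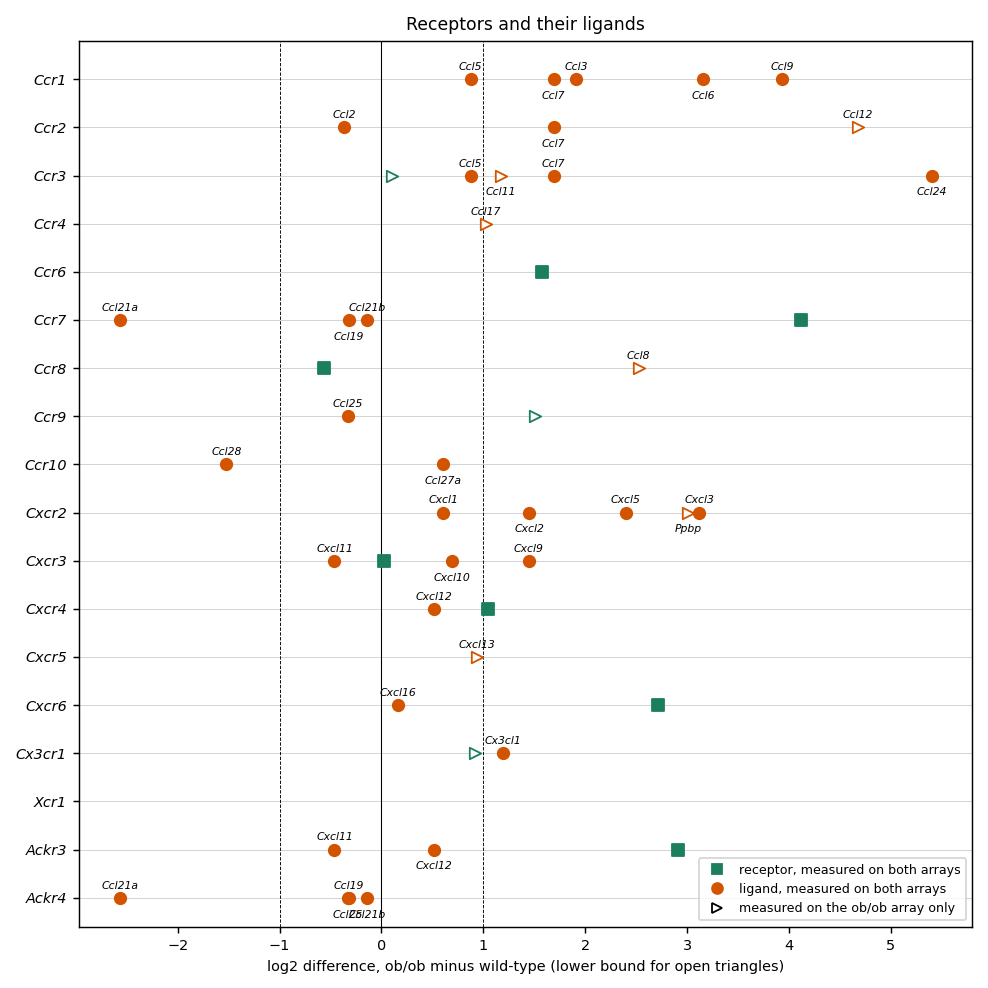
Difference (log2, ob/ob minus wild-type) of each receptor (green squares) and of its known ligands (orange circles), 1 receptor a row. Open triangles are genes measured on the ob/ob array only, at lower bounds or, for Ccr3, Ccl8 and Ppbp, at plain ratios. The Cxcr2 ligands have no measured receptor in their row, and Ccr7 lies at 4.11 while its ligands lie at or below -0.14.

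Receptors were set beside their known ligands. Ccr7 at 4.11 stood with Ccl21b at -0.14, Ccl19 at -0.32 and Ccl21a at -2.57. Cxcr6 at 2.71 stood with Cxcl16 at 0.17, and Ackr3 at 2.91 with Cxcl12 at 0.51 and Cxcl11 at -0.46. Other receptors stood with ligands of positive difference. Cxcr4 at 1.05 stood with Cxcl12 at 0.51. Cx3cr1, Ccr3 and Cxcr5 passed background in ob/ob alone, which by itself sets them on the ob/ob side. Their pairs therefore cannot show a shared direction. Cx3cr1, at least 1.89-fold brighter by 1 of its 2 probes, stood with Cx3cl1 at 1.20. Ccr3, with a plain difference of 0.10 ± 0.40, stood with Ccl24 at 5.40, Ccl7 at 1.69, Ccl5 at 0.87 and Ccl11, at least 2.25-fold brighter. Cxcr5 and its ligand Cxcl13 were both above background in ob/ob alone. Ccr9, at least 2.84-fold brighter, stood with Ccl25 at -0.33, and Ccr8 at -0.57 with Ccl8, whose scaled ratio was 5.75. Cxcr3 at 0.02 stood with Cxcl9 at 1.45, Cxcl10 at 0.69 and Cxcl11 at -0.46. Ccr2, above background in ob/ob alone, stood with Ccl2 at -0.37, Ccl7 at 1.69 and Ccl12, at least 25.6-fold brighter. Receptors brighter in ob/ob thus stood beside ligands on both sides of 0. For other ligands the receptor was above background on neither array. The Cxcr2 ligands Cxcl1, Cxcl2, Cxcl3 and Cxcl5 were all measured on both arrays, with Cxcr2 at signals of 5.18 in ob/ob and 2.48 in wild-type cells. Likewise Ccl6 and Ccl9 were far above background and Ccr1 had signals of 7.31 in ob/ob and 3.48 in wild-type cells.

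**Figure D4:**
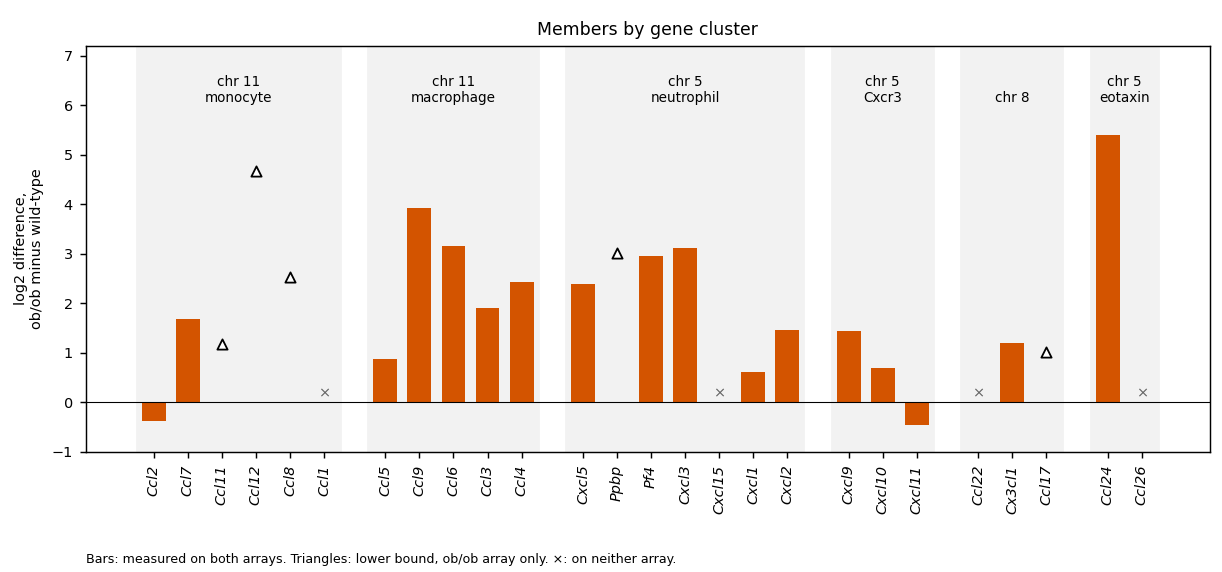
Difference (log2, ob/ob minus wild-type) of members in 6 gene clusters, in chromosomal order within each (mm9). Bars are ligands measured on both arrays, triangles are lower bounds (plain ratios for Ccl8 and Ppbp), and crosses genes measured on neither array. All 5 genes of the macrophage inflammatory protein cluster are above 0, and the monocyte cluster holds Ccl2 at -0.37 beside Ccl7 at 1.69.

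Markers of some other cell types, though not of all, moved in the same direction as many members. Of 20 Kupffer cell and macrophage markers measured on both arrays, 17 were at least 2-fold higher and 0 lower, with a summed scaled signal of the 22 listed genes of 177 in ob/ob and 64.9 in wild-type cells. Of that list Cd163 was above background on neither array and Spi1 on the ob/ob array only. Hepatocyte markers were higher in 12 of 15 (summed signal 41.1 in ob/ob and 7.56 in wild-type cells), stellate cell and fibroblast markers in 12 of 13 (39.4 in ob/ob and 10.1 in wild-type cells) and cholangiocyte markers in 3 of 4 (5.54 in ob/ob and 0.573 in wild-type cells). Of the cholangiocyte list, Cftr stayed within 2-fold at -0.31. Its members Krt19, Krt7, Epcam and Sox9 passed background in ob/ob alone, at dim signals of 18.1 to 33.3. Dendritic cell markers were higher in 3 of 7, with a summed signal of 25.9 in ob/ob and 24.8 in wild-type cells, and Flt3 and Clec10a passed background in ob/ob alone. T and natural killer cell markers were higher in 0 of 5, and 6 more passed background in ob/ob alone (1.5 in ob/ob and 1.15 in wild-type cells). B and plasma cell markers were higher in 1 of 3 (1.87 in ob/ob and 1.64 in wild-type cells) and mast cell and eosinophil markers in 1 of 3 (22.7 in ob/ob and 22.2 in wild-type cells). Neutrophil markers were higher in 1 of 6 and lower in 2 (37.4 in ob/ob and 44.0 in wild-type cells). A further 4, among them S100a8 and S100a9, passed background in ob/ob alone, and 1 in wild-type alone. Most of the neutrophil sum came from Csf3r, with signals of 52200 in ob/ob and 42743 in wild-type cells. Kit likewise made up most of the mast cell and eosinophil sum, and Siglech most of the dendritic cell sum. The part of these cells in the chemokine and receptor differences was not tested.

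Genes that act with chemokines were counted from lists. Of 36 measured genes of chemokine receptor signalling, 9 were at least 2-fold higher and 0 lower, with a median of 0.21. They included the regulator of G protein signalling Rgs16 at 2.65 and the myeloid kinase Fgr at 2.47, and Dock2, a Rac activator of leukocytes, was at least 4.20-fold brighter in ob/ob. Of 18 genes for other chemoattractants and their receptors, 7 were higher and 0 lower, with a median of 0.62, among them the formyl peptide receptors Fpr1 at 4.77 and Fpr2 at 3.74 and the complement receptors C5ar1 at 3.30 and C3ar1 at 2.17. Of 23 genes that process chemokines or hold them on the cell surface, 4 were higher and 0 lower (median 0.49), with the heparan sulfate carrier Sdc1 at 2.11. Of 22 cytokines and factors that induce chemokines, 7 were higher and 0 lower (median 0.62), with Il1b at 6.07, Il18 at 3.68, Il6 at 3.08, Il33 at 2.26 and Tslp at 2.02. Wild-type signals were 16.8 for Il1b and 15.7 for Tslp, close to the dimmest measured (12.3). They were 26.1 to 27.4 for Il18, Fpr1, Fpr2 and C3ar1, 46.2 for C5ar1, 160 for Il6 and 641 for Il33. Dim wild-type signals limit the size of these differences, and their values under the alternatives are not given. Each list had a larger share of genes higher than the 5.83% of all genes. The lists were chosen with earlier results of these data known, so these shares are not independent evidence.

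**Figure D5:**
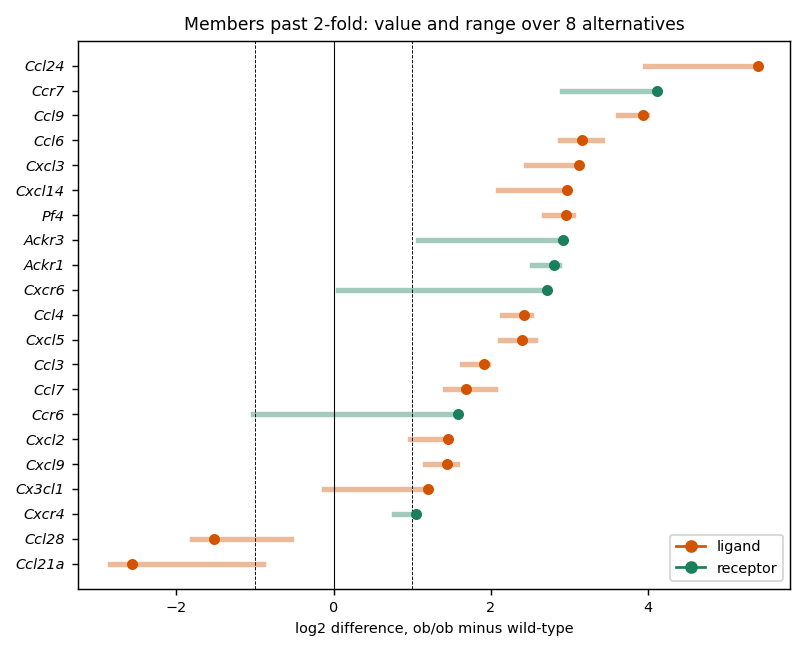
Difference (log2, ob/ob minus wild-type) of 21 members past 2-fold (points) with the lowest and highest value over 8 processing alternatives (bars), ligands in orange and receptors in green. Among the higher genes plotted, 11 of 13 ligands and 3 of 6 receptors stay past 2-fold throughout, and the bars of Ccr6 and Cx3cl1 cross 0.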

How the data were processed

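RNA of 1 ob/ob and 1 wild-type LSEC preparation was labelled with Cy3 and hybridised to 1-colour Agilent arrays (design 026655). Each deposited file lists the linear intensity of every spot. Background subtraction, detrending and outlier flags were made by the authors with Agilent Feature Extraction 11.0.1.1, per the file headers, which place probes on mm9. The authors' deposited table gives, as a linear signal, the processed intensity over the 75th percentile of its array, within 1% for every feature, and was used as an alternative.

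Here log2 intensity was scaled on the 75th percentile of each array's 43020 non-control spots. Flagged spots were dropped (120 ob/ob, 148 wild-type, 0 of members), spots of a probe averaged, and a gene measured where over 50% of spots of a probe were well above background. Of a gene's measured probes, the brightest over both arrays gave its value. No non-control spot was saturated. Symbols were updated through accessions in a RefSeq table (GRCm38.p6). Members, lists and the naming rule were chosen with earlier results of these data known. Signals are printed for members past 2-fold, for those with a bound and for bright or partner genes. The pipeline was tested on simulated data. Alternatives changed the background correction (normexp, limma 3.58.1, offset 50), scaling, probe rule, filters or table. Scripts ran in Python 3.11.15 with pandas 2.3.3 and numpy 2.4.6, and in R 4.3.3. The number of arrays limits the precision. 1 receptor and 1 gene of a list are not reported here, and counts and medians over groups include them.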

Additional observations from a re-analysis of the deposited data

How the results depend on the processing

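Over 8 alternatives, 288 values of the 36 members measured on both arrays were compared. Of the 176 values of members past 2-fold, 164 stayed past it in the same direction. This total includes alternatives that could change few or no members. They kept flagged spots (0 of members), added genes measured on 1 array, averaged probes or used the authors' table. Each of them left all 22 members past 2-fold. Fewer stayed where background or scaling changed: 17 under normexp with quantile normalization and 18 under normexp with 75th-percentile scaling. Array-median scaling left 20, and quantile normalization of the processed signal 21. Ligands at least 2-fold higher numbered 11 to 19 and receptors 5 to 10. With normexp and the 75th percentile, Ccr6 came to -1.03 and Cx3cl1 to -0.13, 2 receptors (Ccr6 and Ccr8) and 3 ligands (Ccl19 at -1.29 beside Ccl21a and Ccl28) were lower, and of all genes 369 were higher and 3821 lower. With normexp and quantile normalization 0 ligands were lower, and of all genes 509 were higher and 130 lower. Scaling on the array median moved every difference by -0.28 and gave 978 lower among all genes. Counting genes measured on at least 1 array gave 2159 higher and 672 lower among all genes, since it adds genes. For the other alternatives the cause was not tested. Signals near the dimmest measured ones (11.7 in ob/ob, 12.3 in wild-type) limit the dim receptors. No paired analysis was possible because each group has 1 array, and for the same reason no array could be left out.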

Other observations

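Some members had probes that did not give the same reading. Of the 2 probes of Cx3cr1, the fractalkine receptor, 1 had signals of 33.8 in ob/ob and 2.81 in wild-type cells and the other 2.38 in ob/ob and 2.67 in wild-type cells. The second probe of Ccr9, a gut-homing receptor, had 6.50 in ob/ob and 2.57 in wild-type cells, beside 50.6 in ob/ob and 4.53 in wild-type cells for the first. Ccl27a, a skin chemokine with a near-identical copy in the mouse genome, had 4 probes, of which 3 were measured on both arrays with differences of 0.31 to 0.66 (ob/ob minus wild-type, log2), and the sign turned to -0.69 with normexp and the 75th percentile.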
